A study of Mus musculus with 6 samples.

Results

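Carbonic anhydrase 2 (Car2) and 8 other genes used to follow red cell development were examined in cultured mouse progenitors that lost either CAF-1 or HOXA9 activity. The 9 genes, Car2, Car1, Klf1, Epor, Tfrc, Eng, Hba-a1, Hbb-bt and Blvrb, were taken by name out of 27998 gene columns of a single-cell UMI table, with no threshold on a measured value. A unique molecular identifier (UMI) marks 1 captured transcript molecule. The study itself used Car2, Eng, Gata2 and Gfi1b as erythroid progenitor genes on these same libraries, so the direction of these genes here is not independent evidence.

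The cells were granulocyte-macrophage progenitors of the strain the labels give as C57BI/6, held in self-renewal by an estrogen receptor-HOXA9 fusion (iGMPs). They also carry a Lys-GFP reporter, in which the Lysozyme promoter drives GFP, and grew in stem cell factor (SCF) from conditioned medium. In the CAF-1 OFF arm, 1 clone expressed an IPTG-induced hairpin against Chaf1b, which encodes part of the chromatin assembly complex CAF-1, for 48 or 96 h, with β-estradiol still present. In the HOXA9 OFF arm, a control hairpin clone was cultured without β-estradiol for 48 or 96 h, which inactivates the fusion. The 0 h library of each arm was cultured with β-estradiol alone. Each of the 6 groups is 1 library without replicates, so differences are described by size without a test, clone and treatment cannot be told apart at the later times, and intervals cover counting error only.

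In the marrow, erythroid cells arise from a progenitor shared with megakaryocytes. Erythropoietin, bound by its receptor EPOR, supports survival of the committed progenitors. GATA1 and its target KLF1 then switch on the genes for haem synthesis, the red cell membrane and the globins. Transferrin receptor (TFRC) brings in iron, and the carbonic anhydrases CA1 and CA2 interconvert carbon dioxide and bicarbonate. Endoglin (ENG, CD105) is a co-receptor for TGF-β family ligands that is present on early erythroid progenitors and also on endothelium and macrophages. BLVRB reduces biliverdin and flavins, and is abundant in red cells but not restricted to them.

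After removal of barcodes outside the limits of the study (200 to 6000 genes, at most 10% mitochondrial UMIs), the CAF-1 OFF libraries of 0, 48 and 96 h kept 647, 927 and 911 cells and those of HOXA9 OFF kept 473, 1404 and 1510 cells. Values below are given in this order of times. Libraries held between 3524285 and 5589486 UMIs. The median per cell was between 5956 and 8660 UMIs in the CAF-1 OFF libraries and in HOXA9 OFF at 0 h, but 3535.5 and 2043.5 in HOXA9 OFF at 48 and 96 h. The limits removed between 0.198% and 66.2% of barcodes per library, most at 0 h. Of all barcode sequences, 34 occurred in 2 libraries, 16 of them among the kept cells, and 0 in 3 or more. The targeted gene Chaf1b gave counts-per-million values (CPM) of 35.6, 3.22 and 6.49 for CAF-1 OFF and of 51.5, 15.3 and 1.13 for HOXA9 OFF. The progenitor gene Cd34 was at 756 and 660 CPM in the 0 h libraries, and 8 listed genes not expressed in blood gave 1 UMI in all libraries together.

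Of the 9 genes, 8 had a UMI in a kept cell, and only Car2, Tfrc and Blvrb reached a mean of 20 CPM over the 6 libraries. Several genes that define the erythroid lineage were near or at the limit of detection. Others were not, such as Gata1 and Gfi1b, which were higher in CAF-1 OFF at 96 h than at 0 h, as described below. Car1 had 0 UMIs in every library. Klf1 had at most 14 UMIs and Epor at most 22 UMIs in a library. Of the wider lists, Alas2, the erythroid enzyme that starts haem synthesis, and Slc4a1, Ank1 and Kel of the red cell membrane had 0 UMIs throughout, while Rhd, the Rhesus antigen gene on the same membrane list, reached 68.8 CPM in CAF-1 OFF at 96 h from 7.12 CPM at 0 h. The name "erythroid progenitor genes" is used here for what these genes are known for, since several defining genes of the lineage were not detected beside them and others were. Car2, Tfrc and Blvrb carried most of the members' UMIs, and each gene is described on its own below.

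Because Eng, Hbb-bt and Blvrb all rose in CAF-1 OFF while Tfrc did not, the 250 bases upstream of these genes are shown. They come from RefSeq on build GRCm38.p6, in which 7 of the 9 genes had an entry, and are written 5′ to 3′ on the strand of the gene. Car1 and Car2 had no entry, so Car2 is not covered by the motif counts. Capitals mark matches on either strand to a KLF-type motif (CCNCNCCC) or a GATA motif, which is AGATAA with T allowed as its first base and G as its last. Eng lies on chr2, Hbb-bt and Blvrb on chr7 and Tfrc on chr16. Eng, chr2:32646345-32646594, plus strand, holds 3 KLF-type matches, the nearest at positions -79 to -72 from the gene start. Hbb-bt, chr7:103813924-103814173, minus strand, holds 1, at positions -107 to -100. Blvrb, chr7:27447728-27447977, plus strand and the first of its start sites, holds 4. Tfrc, chr16:32608646-32608895, plus strand and likewise the first start site, holds 3 that overlap one another.
Eng: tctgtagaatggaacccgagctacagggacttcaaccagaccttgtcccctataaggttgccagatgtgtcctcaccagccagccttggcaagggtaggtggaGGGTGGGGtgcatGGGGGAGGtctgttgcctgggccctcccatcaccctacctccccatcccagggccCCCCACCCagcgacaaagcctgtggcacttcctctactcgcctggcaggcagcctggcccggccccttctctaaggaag
Hbb-bt: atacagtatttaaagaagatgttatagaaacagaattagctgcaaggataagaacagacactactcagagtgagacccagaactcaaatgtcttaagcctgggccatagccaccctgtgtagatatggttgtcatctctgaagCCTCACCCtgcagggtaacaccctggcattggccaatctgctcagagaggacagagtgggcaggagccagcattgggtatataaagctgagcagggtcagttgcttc
Blvrb: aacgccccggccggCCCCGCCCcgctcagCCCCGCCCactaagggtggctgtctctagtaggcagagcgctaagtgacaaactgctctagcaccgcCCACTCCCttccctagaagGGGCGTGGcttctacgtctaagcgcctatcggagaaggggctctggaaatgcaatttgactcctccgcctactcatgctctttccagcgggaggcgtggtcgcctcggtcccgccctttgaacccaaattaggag
Tfrc: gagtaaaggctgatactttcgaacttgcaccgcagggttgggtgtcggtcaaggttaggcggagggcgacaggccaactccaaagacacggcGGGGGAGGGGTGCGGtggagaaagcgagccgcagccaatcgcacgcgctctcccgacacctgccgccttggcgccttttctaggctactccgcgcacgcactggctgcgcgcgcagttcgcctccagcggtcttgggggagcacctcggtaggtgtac

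A KLF-type match is common, present in 45.9% of 32851 upstream windows of the same length, and a GATA match is present in 26.5%. None of the 4 windows shown holds a GATA match, but the window of the second Blvrb start site, not shown, holds 1 at positions -196 to -191. Epor (chr9:21963577-21963826, minus strand), Klf1 and Hba-a1, which had few UMIs here, each hold 1, in Epor at positions -54 to -49. No window of the 7 genes holds the exact ETS letters CCGGAAGT (in 2.88% of windows) or a C/EBP motif (TTGCNNAA, in 9.56%). For ETS no other letters were searched. The shorter stretch GGAAGT was not counted, and the Eng window holds it on the other strand. These are letter matches in a fixed window, and they say nothing about binding. Tfrc without a rise and Eng with one both hold KLF-type matches.

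Car2 was the member with the widest range between arms. The CAF-1 OFF libraries held 96.8 CPM at 0 h (95% Poisson interval 87.6 to 107), 220 CPM at 48 h (208 to 232) and 288 CPM at 96 h (274 to 303). The HOXA9 OFF libraries held 83.1 CPM at 0 h (74.6 to 92.3), 12.6 CPM at 48 h (9.78 to 16.0) and no UMI at 96 h. There the floor of 3 counts used for folds is 0.851 CPM, and the upper 95% Poisson limit is 1.05 CPM. The uninduced libraries were close to each other, the CAF-1 OFF library 1.17-fold higher (exact 95% binomial interval 1.01 to 1.35). Each later CAF-1 OFF library lay above both of them and each later HOXA9 OFF library below both. Against 0 h of its own arm, Car2 was 2.27-fold higher (2.03 to 2.54) in CAF-1 OFF at 48 h and 2.97-fold higher (2.66 to 3.32) at 96 h. It was 6.58-fold lower (5.06 to 8.68) in HOXA9 OFF at 48 h and at least 97.6-fold lower at 96 h. From 48 to 96 h in CAF-1 OFF the further difference was 1.31-fold (1.22 to 1.41). At the same time point, CAF-1 OFF exceeded HOXA9 OFF 17.4-fold (13.6 to 22.6) at 48 h and at least 338-fold at 96 h.

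**Figure D1:**
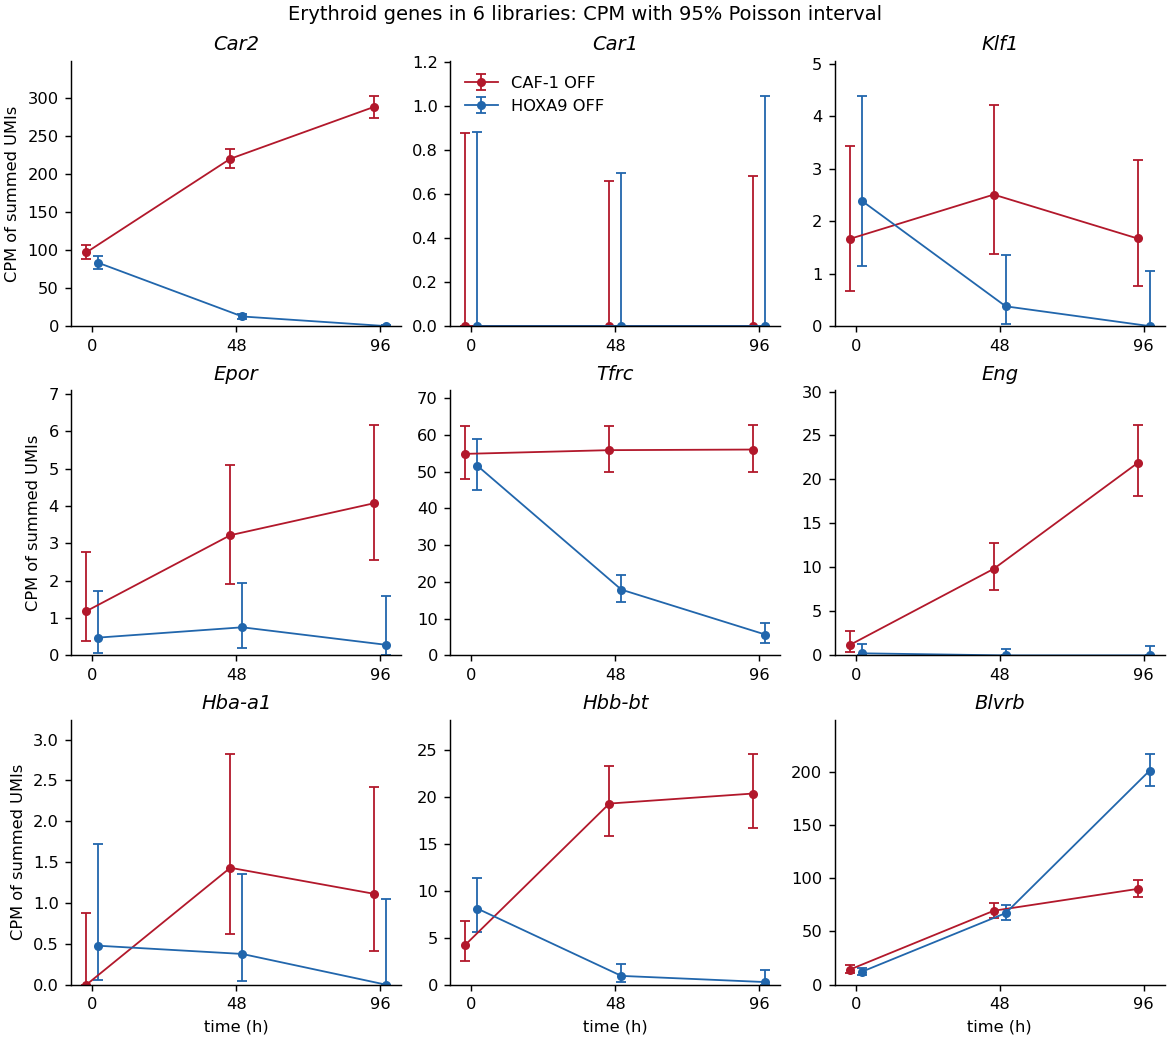
CPM of each gene (vertical axis, own scale per panel) against hours of induction (horizontal axis) in CAF-1 OFF and HOXA9 OFF; points are single libraries and bars are 95% Poisson intervals. Car2 climbs to 288 CPM by 96 h of CAF-1 OFF and reaches 0 by 96 h of HOXA9 OFF, and Blvrb is higher at 96 h than at 0 h in both arms.

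To set these changes among those of other genes, a size of 2-fold was used on the log2(CPM + 10) scale, which understates the change of low genes. In CAF-1 OFF at 48 h, 2 of the 3 members with a mean of 20 CPM passed it upward, Car2 (log2 1.10) and Blvrb, where 2.76% of 4789 such genes did. With Hbb-bt, 3 of the 8 members with any UMI passed it, against 1.13% of 15185 genes. At 96 h the upward counts were 2 of 3, against 5.22% of genes, and 4 of 8, against 2.44%, with Eng as the fourth and Car2 at a log2 change of 1.48. No member passed it downward in CAF-1 OFF, where the percentages were 0.0418% and 0.0263% at 48 h and 0.856% and 0.342% at 96 h. The median log2 change was 0.53 at 48 h and 0.71 at 96 h over the 8 members, and 0.02 and 0.00 over the 15185 genes. In the 15185 genes, 140 had a larger change than Car2 at 48 h and 167 at 96 h, so Car2 was one of many genes that rose.

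In HOXA9 OFF, Car2 and Tfrc passed the size downward at both times and Blvrb upward. Here such changes were common. At 48 h 13% of the 4789 genes were higher and 19.6% lower, and at 96 h 18.1% and 39.8%. Over the 15185 genes the percentages were 5.33% and 7.46% at 48 h and 9.16% and 16.2% at 96 h, with the same 3 members past the size. Car2 had a log2 change of -2.04 at 48 h, with 141 genes lower still, and of -3.22 at 96 h, with 166 genes lower; the latter value depends on the 10 CPM added. The 8 members had medians of -0.14 and -0.19, beside 0.00 and -0.03 over all genes. Between the arms at 0 h, 0 members passed in either direction, and the percentages were 0.146% higher and 0.752% lower for the 4789 genes and 0.0461% and 0.31% for the 15185 genes. At 48 h Car2 and Tfrc were past the size and higher in CAF-1 OFF, as were 19.9% of the 4789 genes, with 0 members lower against 10%. Over the 15185 genes, Hbb-bt joined them against 7.88%, with 0 lower against 4.04%. At 96 h the same 2 genes were higher against 37.8%, and Blvrb was lower against 15.6%. Over the 15185 genes, Car2, Tfrc, Eng and Hbb-bt were higher against 15.6%, and Blvrb was lower against 7.82%.

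**Figure D2:**
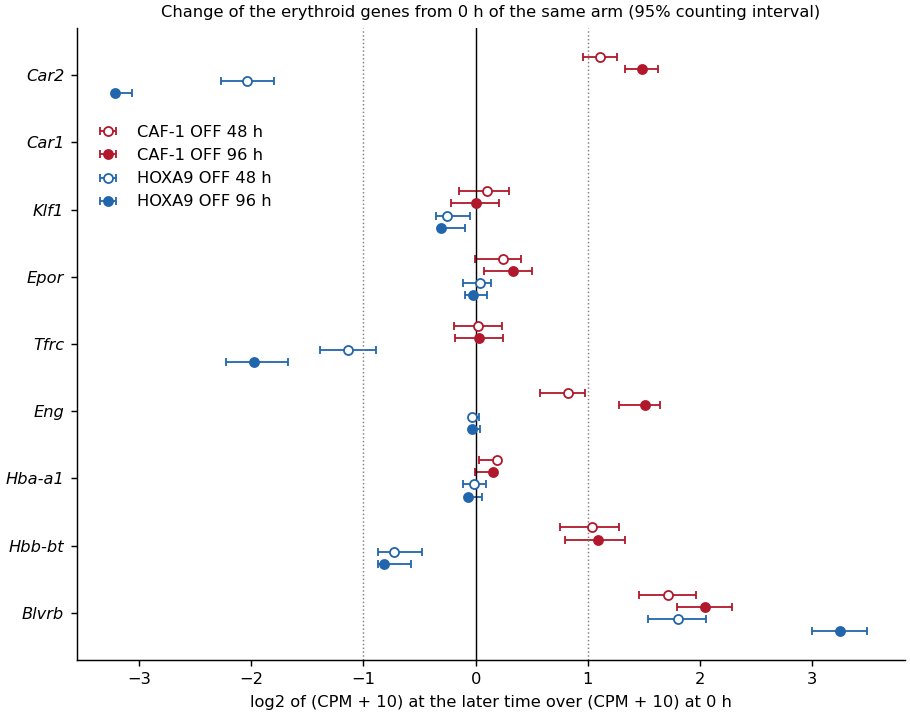
Change of each gene from 0 h of its own arm, as log2 of (CPM + 10) over (CPM + 10), at 48 h (open) and 96 h (filled); bars are 95% counting intervals and dotted lines mark 2-fold. Car2, Eng, Hbb-bt and Blvrb lie to the right for CAF-1 OFF, Car2 and Tfrc lie far to the left for HOXA9 OFF (-3.22 and -1.97 at 96 h), and Car1 has no point because it had 0 UMIs.

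The level of Car2 per cell moved with its total. Without thinning, 41.4% of cells in CAF-1 OFF held a Car2 UMI at 0 h, 57.2% at 48 h and 59.7% at 96 h. In HOXA9 OFF the percentages were 42.5%, 1.07% and 0%, and 0 of 1510 cells has an upper exact 95% limit of 0.244%. Cells differ in depth, so each cell was also thinned to 1300 UMIs. The percentages of cells with Car2 were then 11.8% (exact 95% binomial interval 9.43 to 14.6), 22.6% (19.9 to 25.5) and 26.9% (24.1 to 30.0) in CAF-1 OFF. In HOXA9 OFF they were 8.47% (6.12 to 11.4), 0.654% (0.300 to 1.24) and 0% of 1376 cells. Free RNA adds UMIs to cells that do not express a gene, and the later HOXA9 OFF cells, at a median of 2043.5 UMIs, give the lowest share in the series. No cell type within the CAF-1 OFF libraries was known to lack Car2, so a background share in those libraries was not measured.

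More molecules per positive cell accompanied the larger share. A Car2-positive cell held 1.52 UMIs on average in CAF-1 OFF at 0 h, 2.32 at 48 h and 2.85 at 96 h. Cells with at least 5 Car2 UMIs numbered 3, 55 and 97, and the highest cell held 5, 13 and 17 UMIs. At equal depth, cells with at least 2 Car2 UMIs made up 0.948%, 6.06% and 6.65% of CAF-1 OFF cells. The UMIs were thus spread over many cells of these libraries.

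**Figure D3:**
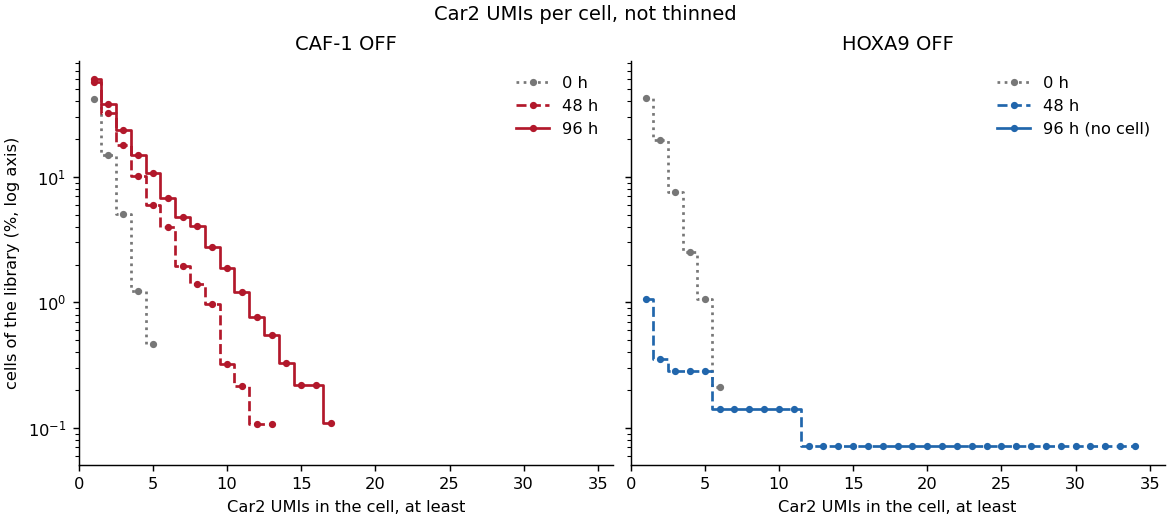
Percent of the cells of a library (vertical, log axis) that hold at least the number of Car2 UMIs on the horizontal axis, not thinned, by time in CAF-1 OFF (left) and HOXA9 OFF (right). In CAF-1 OFF the 48 and 96 h curves lie above the 0 h curve and reach 13 and 17 UMIs, whereas in HOXA9 OFF at 48 h 1.07% of cells are positive and 1 cell reaches 34 UMIs.

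HOXA9 OFF at 48 h was different. Only 15 of 1404 cells held a Car2 UMI, and the 67 UMIs were unevenly spread. The highest cell held 34 and the next held 11, 5 and 5, so that 4 cells had 55 of the UMIs (82.1%), while the other 11 cells had 1 or 2 each. All 4 cells also held Cpa3 (mast cell carboxypeptidase, 11 to 192 UMIs), the transcription factor Gata2 (3 to 5 UMIs) and Ms4a2, a chain of the high-affinity IgE receptor. None of the 4 held Klf1, Epor, Tfrc, Elane or S100a8. In the whole library Klf1 was found in 0.142% of cells, Epor in 0.214% and Tfrc in 5.13%. The absence of these 3 from 4 cells therefore says little. In the library, 106 cells had at least 5 Cpa3 UMIs; 7 of them were Car2-positive and they held 58 of the 67 UMIs (86.6%), a Car2 level of 119 CPM against 1.87 CPM in the other 1298 cells. Without the 4 cells, Car2 stood at 2.27 CPM, and the log2 change from 0 h was -2.92 in place of -2.04. These cells were singled out after their values were seen.

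Within the later CAF-1 OFF libraries, Car2 was not evenly spread over cells sorted by other genes. Cells were ranked by the share of their UMIs in a gene list, and the 25% of cells at each end were compared as a description. Ranked by 6 early granulocyte genes (Elane, Ms4a3, Fcnb, Cebpe, Ctsg and Prtn3), Car2 was 2.33-fold lower in the top 25% at 0 h (1.71 to 3.19), 2.64-fold lower at 48 h (2.20 to 3.18) and 2.44-fold lower at 96 h (2.10 to 2.85). The 25% with most granulocyte transcripts still held Car2, at 121 CPM at 48 h and 184 CPM at 96 h, above 61.7 CPM in the same group at 0 h. In HOXA9 OFF at 0 h the direction was not the same, with Car2 1.14-fold higher (0.833 to 1.57) in the top 25%, an interval that includes no difference.

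Ranked by 10 cell cycle genes, Car2 was 1.14-fold lower (0.852 to 1.53) in the top 25% at 0 h, 1.38-fold higher (1.18 to 1.62) at 48 h and 2.69-fold higher (2.27 to 3.20) at 96 h. The levels at 96 h were 434 CPM in the top 25% and 161 CPM in the lowest, whose cells had medians of 7051 and 4686 UMIs. The bottom 25% at 96 h, with few cell cycle transcripts, still had more Car2 than the bottom 25% at 0 h (100.4 CPM). Leaving out the top 25% in all 3 libraries gave log2 changes of 0.89 at 48 h and 1.10 at 96 h. Ranked by 8 mast cell or basophil genes, Car2 in the top 25% was 1.28-fold lower (0.949 to 1.74) at 0 h, 1.16-fold higher (0.988 to 1.35) at 48 h and 2.75-fold higher (2.34 to 3.25) at 96 h. Ranked by 10 megakaryocyte genes, it was 1.43-fold lower (1.07 to 1.91), 1.14-fold lower (0.959 to 1.35) and 1.59-fold higher (1.37 to 1.84). For the cell cycle, mast cell or basophil and megakaryocyte lists, Car2 was thus higher in the top 25% at 96 h. At 0 h it was lower there for the megakaryocyte list, and the intervals of the other lists included no difference.

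**Figure D4:**
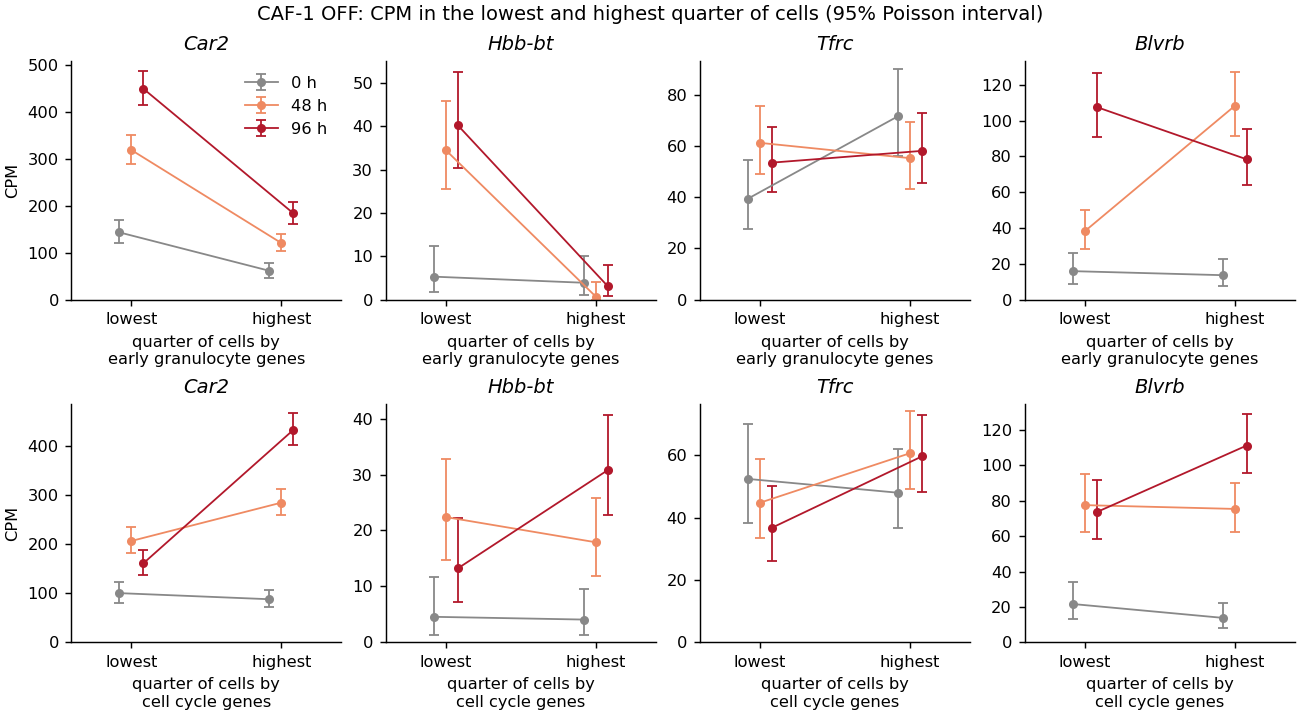
CPM with 95% Poisson intervals of Car2, Hbb-bt, Tfrc and Blvrb in the lowest and highest 25% of CAF-1 OFF cells by early granulocyte genes (upper row) or cell cycle genes (lower row) at 0, 48 and 96 h. Car2 and Hbb-bt are lower in the cells with most early granulocyte transcripts at 48 and 96 h, and Car2 at 96 h is at 434 CPM in the top 25% by cell cycle genes against 161 CPM in the bottom 25%.

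Car1, the other cytoplasmic carbonic anhydrase of red cells, had 0 UMIs in all 5872 cells. It lies on chromosome 3, as does Car2 (Car1 at chr3:14766214-14808365, Car2 at chr3:14886269-14900770). Of 14 further carbonic anhydrases, 10 had a UMI and only Car3 reached a mean of 20 CPM. The CAF-1 OFF libraries gave 91.8, 69.1 and 63.4 CPM of Car3 and the HOXA9 OFF libraries 57.5, 3.58 and 0 CPM. Car3 and Car2 thus both reached 0 in HOXA9 OFF at 96 h, and in CAF-1 OFF Car3 was lower at both later times (log2 -0.37 and -0.47, within the 2-fold size) where Car2 was higher.

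The genes most like Car2 over the 6 libraries, by Euclidean distance on centred log2(CPM + 10) values among the 4789 genes, were Rab38 (distance 0.53), Tmem176b (0.87), Nkg7 (0.88), 4930519L02Rik (1.00) and Igfbp4 (1.01). For Rab38, a small GTPase, CAF-1 OFF gave 83.5, 224 and 277 CPM and HOXA9 OFF gave 66.8, 19.4 and 1.13 CPM. None of the 5 belongs to an erythroid list used here.

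Klf1, the transcription factor that drives the adult β-globin gene, gave 7, 14 and 9 UMIs (1.66, 2.50 and 1.67 CPM) with CAF-1 OFF, and 10, 2 and 0 UMIs with HOXA9 OFF. A rise in CAF-1 OFF was not detectable at this depth, since the ratios to 0 h were 1.51 (0.570 to 4.41) at 48 h and 1.00 (0.333 to 3.17) at 96 h. In HOXA9 OFF the ratio at 48 h, 6.34-fold lower, had an interval of 1.35 to 59.5.

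Of 16 erythroid transcription factors besides Klf1, 15 had a UMI and 8 a mean of 20 CPM. In CAF-1 OFF 0 of the 8 passed the 2-fold size at either time. Over all with a UMI, the repressor Gfi1b passed upward at both times and Gata1 at 96 h. In CAF-1 OFF, Gfi1b measured 5.93, 22.9 and 32.4 CPM, and no HOXA9 OFF library exceeded 4.52 CPM. Gata1 measured 1.19, 4.47 and 12.4 CPM with CAF-1 OFF and 5.01, 8.29 and 6.53 CPM with HOXA9 OFF. Gata2 measured 27.0, 38.8 and 43.9 CPM with CAF-1 OFF. In HOXA9 OFF the progenitor factor Myb was lower, at 261, 93.6 and 19.6 CPM, and Gata2 fell past the size at 96 h, to 5.39 CPM from 34.8 CPM.

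Epor, the erythropoietin receptor, gave 5, 18 and 22 UMIs in CAF-1 OFF (1.19, 3.22 and 4.08 CPM) and 2, 4 and 1 UMIs in HOXA9 OFF. The ratio to 0 h in CAF-1 OFF was 2.71 (0.971 to 9.35) at 48 h, an interval that includes no difference, and 3.44 (1.27 to 11.6) at 96 h. At 96 h the CAF-1 OFF level was 14.4-fold above that of HOXA9 OFF, with an interval of 2.32 to 593 because the latter rests on 1 UMI. Of 10 genes of EPO receptor signalling, 3 had a mean of 20 CPM. In CAF-1 OFF the kinase gene Pim1 passed upward at 96 h, at 9.73, 23.4 and 43.6 CPM over the times. In HOXA9 OFF Pim1, Lyn and the phosphatase gene Ptpn6 all passed upward at both times, Pim1 to 69.7 and 68.7 CPM. Below that mean, the feedback gene Socs2 passed upward in CAF-1 OFF (2.37, 25.2 and 34.1 CPM). These genes also act downstream of other cytokine receptors.

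Tfrc did not follow Car2. Its level in CAF-1 OFF was 54.8 CPM (48.0 to 62.4) at 0 h, 55.8 CPM at 48 h and 56.0 CPM at 96 h, with ratios to 0 h of 1.02 (0.856 to 1.21) and 1.02 (0.858 to 1.22). HOXA9 OFF cells held 51.5 CPM at 0 h, 17.9 CPM at 48 h (14.5 to 21.9) and 5.67 CPM at 96 h (3.47 to 8.76). The falls were 2.88-fold (2.25 to 3.71) and 9.08-fold (5.74 to 15.2). On the log2(CPM + 10) scale they were -1.14 and -1.97. The fall at 48 h lies near the 2-fold size, and scaling by edgeR TMM factors gave -0.92, short of it. Over all alternatives it lay between -0.58 (50 CPM added) and -1.50 (at most 5% mitochondrial UMIs). Thinned to equal depth, 6.32%, 7.28% and 6.21% of CAF-1 OFF cells and 7.20%, 1.53% and 0.799% of HOXA9 OFF cells held a Tfrc UMI.

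Tfrc is needed by all dividing cells, and cell cycle transcripts fell beside it in HOXA9 OFF. There 6 of 10 cell cycle genes passed the 2-fold size downward at 48 h and 10 of 10 at 96 h, and their summed level was 1552, 646 and 13.6 CPM. In CAF-1 OFF 0 of 10 passed, and the sum was 1536, 1772 and 1747 CPM. Within HOXA9 OFF at 48 h, the 25% of cells highest for the cell cycle list had 7.85-fold more Tfrc (3.42 to 22.1) than the lowest. This was not particular to that list, since the top 25% by a granulocyte-monocyte progenitor list had 7.87-fold more (3.20 to 25.1) and by early granulocyte genes 4.45-fold more (2.11 to 10.8). By the cell cycle list, Tfrc in the HOXA9 OFF library of 0 h was 1.20-fold lower (0.802 to 1.80) in the top 25%, and at 96 h 1.16-fold higher (0.368 to 3.76), intervals that include no difference. The CAF-1 OFF libraries gave 1.09-fold lower (0.726 to 1.63), 1.35-fold higher (0.956 to 1.94) and 1.62-fold higher (1.11 to 2.42). The part of the cell cycle in the fall of Tfrc was not tested. The 3 genes most like Tfrc over the libraries were Ndufb6 (distance 0.12), Tsen15 (0.13) and Alg8 (0.15), and Tsen15 measured 39.6, 40.3 and 40.6 CPM with CAF-1 OFF and 40.3, 10.2 and 2.27 CPM with HOXA9 OFF.

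Of 13 other genes of iron handling, 5 had a mean of 20 CPM, and 0 of these passed the 2-fold size in either direction in CAF-1 OFF. Trf, transferrin, was at 145, 205 and 204 CPM there, a log2 change of 0.47 at both times. In HOXA9 OFF the ferritin light chain gene Ftl1 rose from 2678 to 14754 and 19986 CPM, Fth1 passed upward at 96 h, and Trf fell from 113 to 37.7 and 45.1 CPM.

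Eng was nearly absent at 0 h and in all of HOXA9 OFF. In CAF-1 OFF it gave 5, 55 and 118 UMIs, which is 1.19, 9.84 (7.41 to 12.8) and 21.9 CPM (18.1 to 26.2). In HOXA9 OFF it gave 1, 0 and 0 UMIs. The rise over 0 h was 8.29-fold (3.35 to 26.6) at 48 h and 18.4-fold (7.68 to 57.8) at 96 h, and 2.22-fold (1.60 to 3.12) between 48 and 96 h. CAF-1 OFF exceeded HOXA9 OFF at least 17.4-fold at 48 h and at least 25.7-fold at 96 h. Without thinning, cells with an Eng UMI made up 0.773%, 5.61% and 11.3% of the CAF-1 OFF libraries, and after it 0%, 0.882% and 2.44%. On the log2(CPM + 10) scale the changes were 0.83 and 1.51, so Eng passed the 2-fold size at 96 h, where 162 of 15185 genes changed more.

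Eng is also a gene of endothelium and macrophages, so genes listed for both were examined in CAF-1 OFF. Of 6 endothelial genes, Kdr, Emcn and Cldn5 had 0 UMIs in CAF-1 OFF, and the summed level, nearly all of it Pecam1, was 55.5, 70.7 and 85.3 CPM. Of 9 macrophage genes, 0 of the 3 with a mean of 20 CPM passed in CAF-1 OFF, and the sum was 9.97, 25.0 and 38.4 CPM, so that it rose beside Eng. C1qb, a complement gene of macrophages, measured 0, 5.73 and 10.4 CPM and passed at 96 h over all genes with a UMI. In HOXA9 OFF the macrophage sum was 6.92, 204 and 342 CPM without Eng UMIs at the later times. The part of such cells in the rise of Eng was not tested. Within CAF-1 OFF at 96 h, Eng was 5.71-fold higher (2.79 to 13.2) in the 25% of cells highest for mast cell or basophil genes and 3.47-fold higher (1.92 to 6.64) in that highest for megakaryocyte genes. At 48 h these were 3.25-fold (1.34 to 9.01) and 2.43-fold (1.08 to 5.97). In the 25% of cells highest for early granulocyte genes it was 2.24-fold lower (1.20 to 4.40) at 96 h, but 1.04-fold higher (0.408 to 2.64) at 48 h, and by the granulocyte-monocyte progenitor list 1.19-fold higher (0.667 to 2.14) at 96 h, so no direction held.

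Of 18 genes of the endoglin receptor complex and its SMAD targets, 17 had a UMI and 4 a mean of 20 CPM. Id1, a SMAD target, passed upward in CAF-1 OFF at both times, at 18.0, 47.1 and 78.4 CPM, and Id2 at 96 h, at 18.3, 46.3 and 58.2 CPM. Both also passed in HOXA9 OFF at both times, Id1 to 91.5 and 46.8 CPM and Id2 to 226 and 505 CPM. Eng and the Id genes thus rose together in CAF-1 OFF, while in HOXA9 OFF the Id genes rose without Eng. Id1 and Id2 respond to other signals as well. The type I receptor gene Acvrl1 did not exceed 0.895 CPM in CAF-1 OFF.

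Hbb-bt, an adult β-globin gene, gave 18, 108 and 110 UMIs in CAF-1 OFF, which is 4.27 (2.53 to 6.75), 19.3 (15.9 to 23.3) and 20.4 CPM (16.8 to 24.6). In HOXA9 OFF it gave 34, 5 and 1 UMIs, or 8.11, 0.942 and 0.284 CPM. The uninduced libraries differed, CAF-1 OFF being 1.90-fold lower (1.04 to 3.57). Against 0 h, Hbb-bt was 4.52-fold higher (2.73 to 7.92) at 48 h and 4.77-fold higher (2.88 to 8.35) at 96 h in CAF-1 OFF, with no detectable difference between 48 and 96 h (1.06-fold, 0.802 to 1.39). In HOXA9 OFF it was 8.62-fold lower (3.35 to 28.2) at 48 h, and 28.6-fold lower at 96 h with an interval of 4.80 to 1162 from 1 UMI. The log2 change in CAF-1 OFF at 48 h, 1.04, lies at the 2-fold size, and scaling by TMM factors gave 0.97. Over all alternatives it lay between 0.35 (50 CPM added) and 1.95 (1 CPM added).

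Hbb-bt UMIs were scattered over cells and low in each. The share of CAF-1 OFF cells with one was 2.78%, 7.87% and 7.90%, or 1.11%, 2.54% and 3.22% after thinning. The highest cell held 1, 5 and 9 UMIs. The α-globin gene Hba-a1 gave 0, 8 and 6 UMIs in CAF-1 OFF, and HOXA9 OFF gave 2, 2 and 0 UMIs, too few to size a change. The 48 h level in CAF-1 OFF was 2.01-fold above the floor of 3 counts at 0 h, a value that leaves out counting error in the 8 UMIs. Hba-a2 gave at most 3 UMIs and Hbb-bs at most 6 UMIs in a library. Hba-a1 and Hba-a2, and Hbb-bt and Hbb-bs, are near-identical pairs among which reads can be assigned wrongly, so the level of each single globin gene is uncertain. Of 9 further globin genes and chaperones, 4 had a UMI and 0 a mean of 20 CPM.

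Hbb-bt was concentrated in cells with few granulocyte transcripts. In the 25% of CAF-1 OFF cells highest for early granulocyte genes it gave 1 UMI at 48 h and 4 UMIs at 96 h, against 48 and 55 UMIs in the bottom 25%. The folds were 46.3 (7.92 to 1866) and 12.8 (4.74 to 48.8). In the uninduced HOXA9 OFF library the same comparison gave 12.7-fold (3.16 to 111), and in CAF-1 OFF at 0 h, with 4 and 5 UMIs, no difference was detectable. The level in the top 25% at 48 h, 0.747 CPM (0.0189 to 4.16), includes any free Hbb-bt RNA of that library. In the 25% of CAF-1 OFF cells highest for cell cycle genes, Hbb-bt was 1.25-fold lower (0.705 to 2.22) at 48 h and 2.33-fold higher (1.27 to 4.57) at 96 h. By mast cell or basophil genes it was 1.21-fold higher (0.612 to 2.40) at 48 h and 4.43-fold higher (1.92 to 11.9) at 96 h. By megakaryocyte genes the direction changed, from 3.81-fold lower (1.70 to 9.64) at 48 h to 2.14-fold higher (1.26 to 3.73) at 96 h.

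Hbb-bt and Car2 were compared cell by cell. At equal depth, 4.39% of Car2-positive cells (2.03 to 8.17) held Hbb-bt in CAF-1 OFF at 48 h, against 1.99% of Car2-negative cells (1.09 to 3.32). At 96 h the percentages were 5.35% (2.88 to 8.97) and 2.43% (1.39 to 3.91). The intervals overlap at both times. With cells thinned to 2600 UMIs the gap was gone, at 4.49% against 4.47% at 48 h and 4.16% against 4.58% at 96 h, so the order depended on the depth of thinning. At 1300 UMIs the percentages for Tfrc were 7.80% against 7.12% and 8.23% against 5.46%, and for Blvrb 9.76% against 8.40% and 11.1% against 11.4%. The neutrophil granule gene Elane was found less in Car2-positive cells at either depth, with 31.2% (24.9 to 38.0) of Car2-positive and 42.9% (39.2 to 46.6) of Car2-negative cells at 48 h, and 48.6% (42.1 to 55.0) against 63.7% (59.9 to 67.4) at 96 h, and 41.3% against 55.2% and 68.4% against 77.7% at 2600 UMIs. At 1300 UMIs Pf4, a megakaryocyte chemokine, was in 24.9% against 30.2% and in 84.8% against 82.1%. Cells with at least 2 of the 9 genes made up 1.58%, 6.17% and 7.76% of CAF-1 OFF cells at equal depth.

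Blvrb rose in both arms and so separates from the rest. It was at 14.2 CPM (10.9 to 18.3), 69.4 CPM (62.7 to 76.7) and 89.9 CPM (82.1 to 98.3) in CAF-1 OFF, and at 12.2 CPM (9.06 to 16.0), 67.2 CPM (60.4 to 74.6) and 201 CPM (186 to 216) in HOXA9 OFF. The rises over 0 h were 4.88-fold (3.71 to 6.51) and 6.32-fold (4.82 to 8.40) in CAF-1 OFF, and 5.52-fold (4.11 to 7.56) and 16.5-fold (12.4 to 22.4) in HOXA9 OFF. At 48 h the arms did not differ detectably (ratio 1.03, 0.892 to 1.20). At 96 h CAF-1 OFF was 2.23-fold lower (1.99 to 2.51). After thinning, 2.37%, 8.71% and 11.3% of CAF-1 OFF cells and 1.48%, 8.79% and 21.5% of HOXA9 OFF cells held Blvrb.

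Blvrb was also spread differently over cells. In CAF-1 OFF at 48 h it was 2.84-fold higher (2.06 to 3.96) in the 25% of cells highest for early granulocyte genes, where Car2 and Hbb-bt were lower. At 96 h it was 1.37-fold lower (1.06 to 1.79) there, so the direction did not hold. Among the genes most like Blvrb over the libraries were Glipr2 (distance 0.58) and Gadd45a (0.67). Gadd45a, a gene induced by DNA damage and other stress, measured 19.2, 58.9 and 105 CPM with CAF-1 OFF and 23.4, 64.0 and 182 CPM with HOXA9 OFF. Neutrophil genes rose with Blvrb in HOXA9 OFF, where 8 of 8 passed upward at 96 h and their sum went from 5.01 to 9043 and 144930 CPM, and in CAF-1 OFF 2 of 8 passed, with sums of 24.4, 598 and 759 CPM. Of the 4789 genes, 18.1% passed upward in HOXA9 OFF at 96 h and 5.22% in CAF-1 OFF. The part of neutrophil genes in the rise of Blvrb was not tested.

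Few haem and membrane genes were high enough to be counted, and 2 of these passed upward in CAF-1 OFF. There 5.22% of the 4789 genes passed upward at 96 h. Of 12 haem synthesis genes, 5 had a mean of 20 CPM, and only Alas1, the housekeeping form of the first enzyme, passed upward in CAF-1 OFF, at 96 h (26.1, 53.9 and 87.1 CPM over the times). Alas1 passed upward in HOXA9 OFF at both times (21.2, 181 and 79.4 CPM), and Cpox was among those that passed downward there at 96 h. Of 4 genes of haem breakdown and export, 2 had a mean of 20 CPM and 0 passed in any comparison with 0 h. Below that mean Hmox1, haem oxygenase 1, passed upward by 96 h of HOXA9 OFF (9.55 CPM at 0 h, 51.1 CPM at 96 h). Of 16 red cell membrane and surface genes, Rhd alone reached a mean of 20 CPM, through the later CAF-1 OFF libraries in which it was high. Rhd passed upward in CAF-1 OFF at both times, from 7.12 to 47.9 and 68.8 CPM, while HOXA9 OFF gave 9.07, 5.84 and 0.284 CPM. Its partner Rhag had 1 UMI in all.

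**Figure D5:**
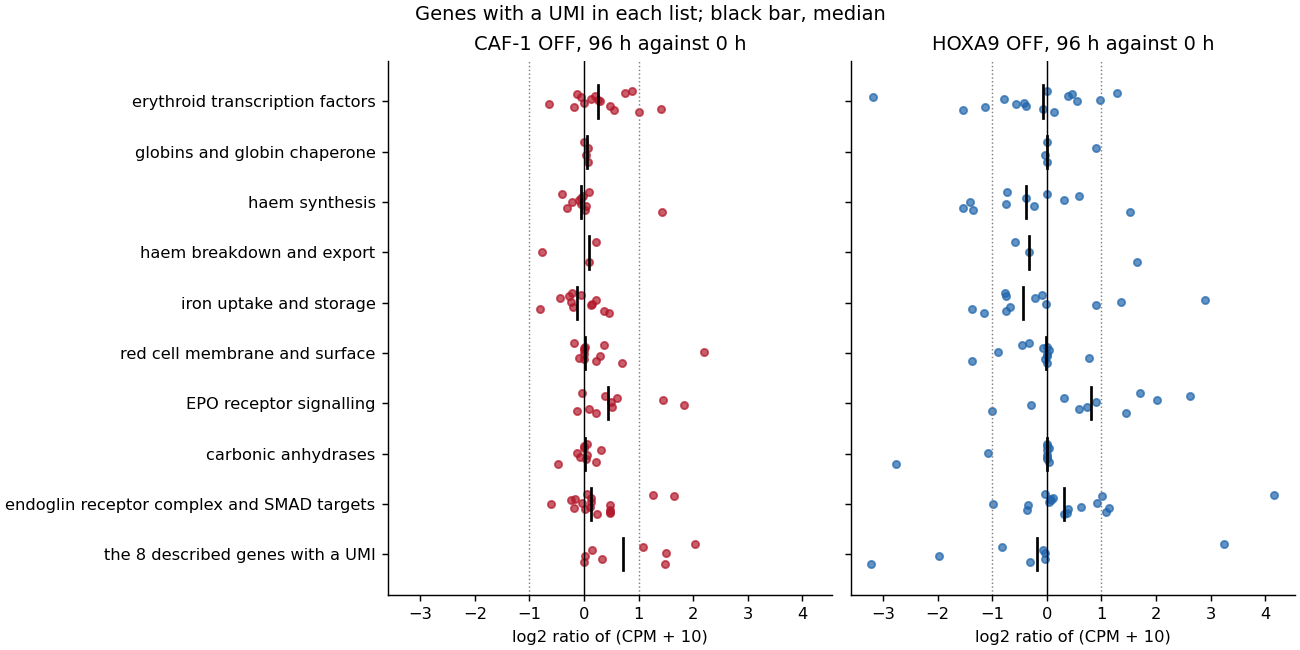
Log2 ratio of (CPM + 10) at 96 h to 0 h of the same arm for the genes with a UMI in each list, in CAF-1 OFF (left) and HOXA9 OFF (right); each point is a gene, black bars are list medians and dotted lines mark 2-fold. In CAF-1 OFF most listed genes lie within 2-fold and the median of the 8 described genes with a UMI is 0.71; in HOXA9 OFF that median is -0.19 and points lie past 2-fold on both sides.

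Other lineage genes rose beside Car2 in CAF-1 OFF, where 5.22% of the 4789 genes passed upward at 96 h. The mean of 20 CPM includes these same libraries, so a low gene can be counted because it is high there. Megakaryocyte genes passed upward in 3 of 3 with a mean of 20 CPM at 96 h, and the sum of the list was 51.0, 518 and 2722 CPM, mostly Pf4 (22.3, 412 and 2481 CPM), with Gp1bb at 0. Mast cell or basophil genes passed in 2 of 3, Cpa3 and Mcpt8, with a sum of 260, 1430 and 4006 CPM and Gzmb at 0. Early granulocyte genes passed in 4 of 6, with a sum of 5068, 7635 and 11367 CPM. In HOXA9 OFF the mast cell or basophil sum was 789, 510 and 79.7 CPM, and the megakaryocyte sum 39.6, 103 and 34.3 CPM. The progenitor list rose past the size in 1 of 10 genes in CAF-1 OFF at 96 h. Whether Car2, Eng and Hbb-bt follow one of these lineages was not tested.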

How the data were processed

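The authors sorted live cells, made single-cell libraries with 10x Chromium 3′ v2 kits, and aligned reads to mm10 with Cell Ranger. The processing notes of the submitters name Cell Ranger 3.0.1, Scanpy 1.4.6 and Seurat 3.0.1. The deposited values are whole-number UMI counts per cell and gene, not normalised, and each cell's library was read from the suffix of its barcode; 0 columns belonged to no sample.

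Cells within the study's limits (200 to 6000 genes, at most 10% mitochondrial UMIs) were kept, 5872 of 7821 barcodes. UMIs were summed per library and divided by its total (CPM). Changes are log2 ratios after adding 10 CPM, with 2-fold as the size for counting, and folds are ratios of CPM. For folds, a library at 0 was set to 3 counts of its own total. A fold given as "at least" a value therefore leaves out counting error in the other library. Intervals are exact 95% Poisson or binomial (Clopper-Pearson) intervals and cover counting error only. Shares of cells were taken after thinning each cell to 1300 UMIs, the 10th percentile of the shallowest library rounded down, and without thinning. Thinning left out 14, 20 and 9 shallower CAF-1 OFF cells and 1, 28 and 134 HOXA9 OFF cells, in order of time. With 1 library per group no test was made. The 9 genes and the lists were chosen with earlier results of these data known. Named genes are the 9 members, up to 4 genes per list with a 2-fold change or a defining role, the 5 genes nearest to Car2 and the 3 nearest to Tfrc and to Blvrb, and Chaf1b. Some genes that this rule or the lists include are not reported here. Doublets were kept; Scrublet called 125 cells (2.13%), and an alternative leaves them out. Alternatives to the settings were the added CPM, edgeR TMM and DESeq2 size factors as scaling only, the limits on cells, and the depth of thinning; the closing section gives their effect. The calculations were tested on simulated data. Python 3.11.15, numpy 2.4.6, scipy 1.17.1, pandas 2.3.3, scanpy 1.11.5, R 4.3.3, edgeR 4.0.16 and DESeq2 1.42.0 were used.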

Additional observations from a re-analysis of the deposited data

Results flagged for a closer look

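Car2 and Hbb-bt changed in opposite directions in the 2 arms, and this difference was not tested, since each arm has 1 library per time. For Car2 the log2 change from 0 h in CAF-1 OFF exceeded that in HOXA9 OFF by 3.15 at 48 h and by 4.70 at 96 h. For Hbb-bt the difference was 1.77 at 48 h and 1.91 at 96 h.

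The barcodes removed by the limits on cells also held transcripts of these genes, above the removed barcodes of CAF-1 OFF at 0 h. In the removed barcodes of CAF-1 OFF, Car2 measured 128 CPM (86.7 to 181) at 48 h, against 53.1 CPM (35.6 to 76.3) at 0 h. By 96 h it measured 208 CPM (156 to 270). Tfrc was at 143 CPM (102 to 197) at 96 h, against 62.3 CPM (43.2 to 87.1). Eng was at 41.5 CPM (20.7 to 74.3) at 96 h, against 0. Blvrb measured 57.7 CPM (31.5 to 96.7) at 48 h, against 9.16 CPM (2.98 to 21.4) at 0 h. By 96 h it measured 52.9 CPM (28.9 to 88.7). The totals behind these CPM include mitochondrial UMIs. Their median share in the removed CAF-1 OFF barcodes was 55.8% at 0 h, 52.9% at 48 h and 25.8% at 96 h. The part of this shift in the CPM differences was not tested.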

How the results depend on the processing

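No paired analysis was possible because each group has 1 library and the labels carry no replicate numbers, so no replicate could be left out either. Over the 213 values recomputed, 989 alternative values were obtained. Levels, shares of cells and counts cannot change sign, so only ratios could change direction. None of the log2 ratios past the size and none of the Car2 share ratios did. Alternatives that moved, outside the counting interval or by more than 1.5-fold for counts, numbered 28 for the main results on Car2 and the members and 216 for the others. The depth of 1 library per group and few UMIs for Klf1, Epor, Hba-a1 and Eng limit what can be seen. The log2 change of Car2 in CAF-1 OFF at 48 h was 0.88 with 50 CPM added, 0.95 with at most 5% mitochondrial UMIs and 0.89 without the 25% of cells highest for cell cycle genes; at 96 h it was 1.20 with 50 CPM and 1.10 without those cells. In HOXA9 OFF at 48 h it was -2.63 with 1 CPM, -1.09 with 50 CPM, -1.70 with at most 5% mitochondrial UMIs and -2.92 without the 4 cells with most Car2; at 96 h it was -6.39 with 1 CPM, -1.41 with 50 CPM, -3.76 with totals that leave out mitochondrial and ribosomal protein genes and -3.01 with all barcodes. Leaving out the 4 cells, the top 25% by cell cycle genes and shared barcodes was chosen after seeing the data. Members 2-fold higher in CAF-1 OFF at 48 h (3) became 5 with 1 CPM and 0 with 50 CPM, and at 96 h (4) 2 with 50 CPM. In HOXA9 OFF members higher at 48 h (1) became 0 with 50 CPM, members lower at 48 h (2) became 4 with 1 CPM and 1 with 50 CPM, TMM factors or median-of-ratios size factors, and members lower at 96 h (2) became 4 with 1 CPM and 1 with 50 CPM. The ratio of the Car2 share of cells to 0 h in CAF-1 OFF was 1.91 at 48 h and 2.27 at 96 h, 1.38 and 1.44 without thinning, and 6.40 and 7.02 when 2 UMIs were required; in HOXA9 OFF at 48 h it was 0.0772, and 0.0251 without thinning. Of the listed erythroid and related genes with a mean of 20 CPM, 2 were 2-fold higher in CAF-1 OFF at 48 h, which became 4 over all genes with a UMI, 5 at a 1.5-fold size or with 1 CPM, 1 with TMM or median-of-ratios factors and 0 at a 4-fold size. At 96 h 5 became 8 over all genes with a UMI and 1 at a 4-fold size, and 0 lower became 2 at 1.5-fold. In HOXA9 OFF 7 higher at 48 h became 4 at 4-fold, and 3 lower became 1 at 4-fold and 7 at 1.5-fold; at 96 h 8 higher became 13 over all genes with a UMI and 4 at 4-fold, and 6 lower became 11, 2 at 4-fold and 10 at 1.5-fold. The median of the 4789 genes moved by 0.25 (TMM) and 0.20 (median-of-ratios) in HOXA9 OFF at 48 h, and by 0.38, 0.44 and, without mitochondrial and ribosomal protein genes, -0.38 at 96 h. The cause of these shifts was not tested.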
